A study of Mus musculus with 50 samples.

Results

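Mitochondrial ribosomal protein genes were followed in single mouse oocytes from which Zfp36l2 had been conditionally deleted. The genes were taken by name alone: every row of the count table whose symbol starts with Mrpl or Mrps followed by a digit, which gave 77 of 16614 rows. The knockout group comprised 24 oocytes labelled cKO-Zfp36l2 from 4 mice (1, 7, 8 and 8 oocytes), and the floxed group 26 oocytes labelled floxed, which carry the targetable allele, from 4 mice (5, 7, 7 and 7 oocytes). All females were 5 weeks old and had received 10 IU of PMSG, a gonadotrophin that stimulates follicle growth. After 46 hours their oocytes were collected at the germinal vesicle stage, the arrested stage of meiotic prophase, in medium with 5 μM milrinone, which maintains the arrest. The labels do not name the Cre driver or the strain. Each oocyte was its own library, and counts were summed per mouse so that the mouse was the replicate.

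Mitochondria translate their own few mRNAs, which encode subunits of the respiratory chain, on a ribosome of their own. Its rRNAs are encoded by mitochondrial DNA, whereas all its proteins are encoded by nuclear genes, translated in the cytosol and imported. Some of these proteins have counterparts in the bacterial ribosome and others occur in mitochondria only. The oocyte holds a large stock of mitochondria that the embryo inherits. ZFP36L2 binds AU-rich elements in the 3′ untranslated region of mRNAs and promotes their decay.

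Totals per oocyte were 4332108 to 6233840 counts in knockout oocytes and 1746007 to 6120317 in floxed oocytes. The lowest of the mouse sums, 4332108 counts, belonged to knockout mouse 1, which gave a single oocyte. Zfp36l2 itself had 2.77, 1.61, 2.56 and 1.06 CPM (a gene's share of all counts, scaled to a common total) in knockout mice 1 to 4, against 3.51, 1.96, 4.17 and 3.44 CPM in floxed mice 1 to 4. The mean was 2.00 ± 0.806 CPM in knockout and 3.27 ± 0.934 CPM in floxed mice (SD, n = 4 each; log2 fold change −0.78, SE 0.43, edgeR adjusted p = 0.208). A count over the whole gene does not separate the deleted exons, so it does not check the genotype, and knockout means the oocytes so labelled. None of the 12 oocyte markers tested was called, and their summed level was 5360 to 6253 CPM in knockout and 5199 to 6627 CPM in floxed mice. The 12 cumulus and granulosa cell markers tested had no call either, at 163 to 309 CPM in knockout and 160 to 241 CPM in floxed mice. Of the blood and vessel markers, only Cd68 and Pecam1 could be tested, with a summed level of 22.3 to 41.8 CPM in knockout and 96.3 to 185.8 CPM in floxed mice, and Pecam1 was called lower. The part of other cells in the results below was not tested. Because CPM is a share of a library, differences in the total mRNA content of oocytes cannot be seen, and all comparisons are relative to the remaining genes.

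The mitoribosomal mRNAs were present in nearly every oocyte. Of the 77 genes, 75 had counts in all 50 oocytes, and single oocytes had counts for 75 to 77 of them. All 77 passed the filter on low counts, so none was left out of the test. They accounted together for 0.573% of counts in knockout and 0.596% in floxed mice. Their summed level was 6075, 5542, 5570 and 5749 CPM in knockout mice 1 to 4, against 6818, 6115, 5281 and 5619 CPM in floxed mice 1 to 4. The 2 groups overlapped. The means were 5734 ± 245 CPM in knockout and 5958 ± 668 CPM in floxed mice (SD, n = 4 each), a ratio of 0.962. The 50 genes of the large subunit summed to 3669 ± 148 CPM in knockout and 3729 ± 445 CPM in floxed mice, and the 26 of the small subunit to 1973 ± 97.7 CPM in knockout and 2133 ± 218 CPM in floxed mice. Single oocytes ranged from 5141 to 6178 CPM, with a median of 5695, in knockout mice, and from 4968 to 8022 CPM, with a median of 5826, in floxed mice. The highest floxed oocytes came from mice 1 and 2. Oocyte 5 of floxed mouse 1, at 8022 CPM, had 2997631 counts in total. Oocyte 6 of floxed mouse 2, at 8004 CPM, had 1746007 counts, the lowest total of all oocytes. Both totals were below the lowest knockout total, 4332108, and the part of depth was not tested. Without floxed mouse 1, the floxed mean was 5672 CPM, below the knockout mean, so no direction is given for the sum.

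**Figure D1:**
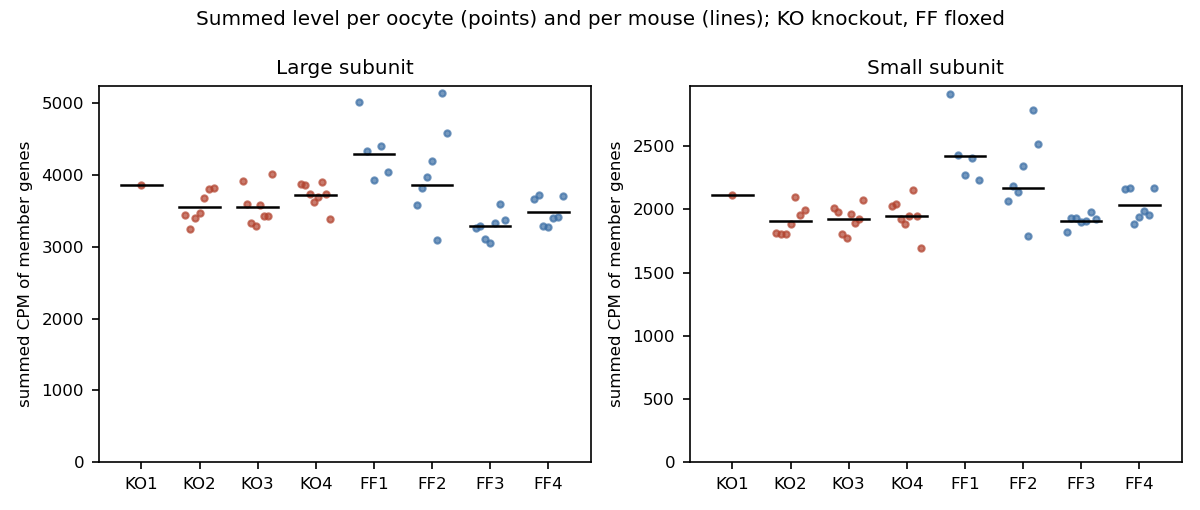
Summed CPM of the large-subunit (left) and small-subunit (right) genes; points are single oocytes, horizontal lines are mouse sums, and KO1 to KO4 and FF1 to FF4 are knockout and floxed mice 1 to 4. All but 2 of the small-subunit values of knockout oocytes lie within the range of the floxed oocytes, and the highest values belong to floxed mice 1 and 2.

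Members differed from each other far more than most of them differed between the genotypes. Divided by transcript length, to allow levels of different genes to be compared, the median member had 50.4 CPM per kilobase in knockout and 49.8 in floxed mice. The highest of the floxed order was Mrps33, a small-subunit protein found in mitochondria only, at 182 ± 12.5 CPM per kilobase in knockout and 200.1 ± 14.1 in floxed mice. Mrps21, the counterpart of a small-subunit protein of bacteria, followed at 156 ± 3.65 CPM per kilobase in knockout and 181 ± 9.03 in floxed mice. Mrps36 came next, with 144 ± 9.41 CPM per kilobase in knockout and 150.2 ± 9.06 in floxed mice. Despite its name, the protein of Mrps36 belongs to the 2-oxoglutarate dehydrogenase complex of the citric acid cycle and not to the ribosome. Mrpl18 had 135 ± 3.02 CPM per kilobase in knockout and 146 ± 7.58 in floxed mice. Mrpl14 had 132 ± 6.08 CPM per kilobase in knockout and 143 ± 25.1 in floxed mice. Then came Mrps18b, at 102 ± 13.2 CPM per kilobase in knockout and 132 ± 6.197 in floxed mice. From Mrps36 to Mrps18b, neighbours in this order differed by less than the larger of their SDs among floxed mice. A processed pseudogene, Gm5776, matches 321 bases (29%) of Mrps33 at 99.69%. Several match Mrps36, the closest of them, Mrps36-ps1, over 306 bases (43.65%) at 99.35%. The levels of Mrps33 and Mrps36 are uncertain to that extent.

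At the low end of the floxed order stood Mrps34, Mrpl19, Mrps26 and Mrps30. Mrps34 had 5.05 ± 6.73 CPM per kilobase in knockout and 0.699 ± 1.28 in floxed mice. The level of Mrpl19 was 4.68 ± 1.16 CPM per kilobase in knockout and 1.01 ± 0.195 in floxed mice. For Mrps26 it was 3.72 ± 2.70 CPM per kilobase in knockout and 3.16 ± 2.93 in floxed mice, and for Mrps30 8.27 ± 4.75 in knockout and 7.74 ± 7.14 in floxed mice. Among floxed mice the spread of Mrps34, Mrps26 and Mrps30 was as large as their means or nearly so, and their order is not separated. Annotated transcripts of members ran from 405 to 7300 bases, and long annotated ends lower a level per length.

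A minority of mitoribosomal genes differed between the genotypes, most of them slightly. In the edgeR quasi-likelihood test over 15029 genes, 15 of the 77 genes passed an adjusted p under 0.05. That is 19.5%, against 27.6% of all tested genes. In knockout oocytes 4 were higher (5.19%, against 14.4% of all genes) and 11 lower (14.3%, against 13.2%). The share of lower members was thus near that of all genes, and the share of higher members below it; these shares were not tested against each other. The 4 knockout mice did not overlap with the 4 floxed mice for 21 members (27.3%, against 31.0% of all genes). The median log2 fold change was −0.10 for members and −0.006 for all genes. Of the 77 members 52 were below 0, beside 7574 of all 15029 genes, and these counts were not tested against each other. In absolute terms the median was 0.16 for members and 0.44 for all genes, beside a median SE of 0.138 and 0.264. A difference over 2-fold was estimated for 5 members (6.49%) and for 25.2% of all genes. Members were also more abundant than most genes, with a median of 63.2 CPM in knockout and 67.2 CPM in floxed mice, against 27.3 and 25.2 CPM over all genes, and the part of abundance in their smaller spread was not tested.

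By subunit, 4 large-subunit genes were higher and 7 lower in knockout oocytes (22% called of 50), and 4 small-subunit genes were lower and none higher (15.4% called of 26). By origin, 3 genes with a bacterial counterpart were higher and 9 lower (25.5% called of 47), against 1 higher and 2 lower among those found in mitochondria only (10.7% called of 28). All 4 shares were below the 27.6% of all genes, and differences between them were not tested. The 9 lower genes with a bacterial counterpart include the paralogues Mrps18a and Mrps18b, although Mrps18c is the paralogue in the place of the bacterial protein. Some of the 77 genes were counted under neither origin. The counts rested in part on single mice. Without floxed mouse 1, 7 members were higher. Without floxed mouse 2, 7 were lower, and without floxed mouse 4, 5 were lower. The share of all genes called moved too: without floxed mouse 4, 10.4% of members and 17.7% of all genes were called. Mouse 1 stood apart in both genotypes, as described below, and without mouse 1 of both, 29.9% of members were called (8 higher, 15 lower), against 43.9% of all genes. All 15 calls were kept in that comparison.

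**Figure D2:**
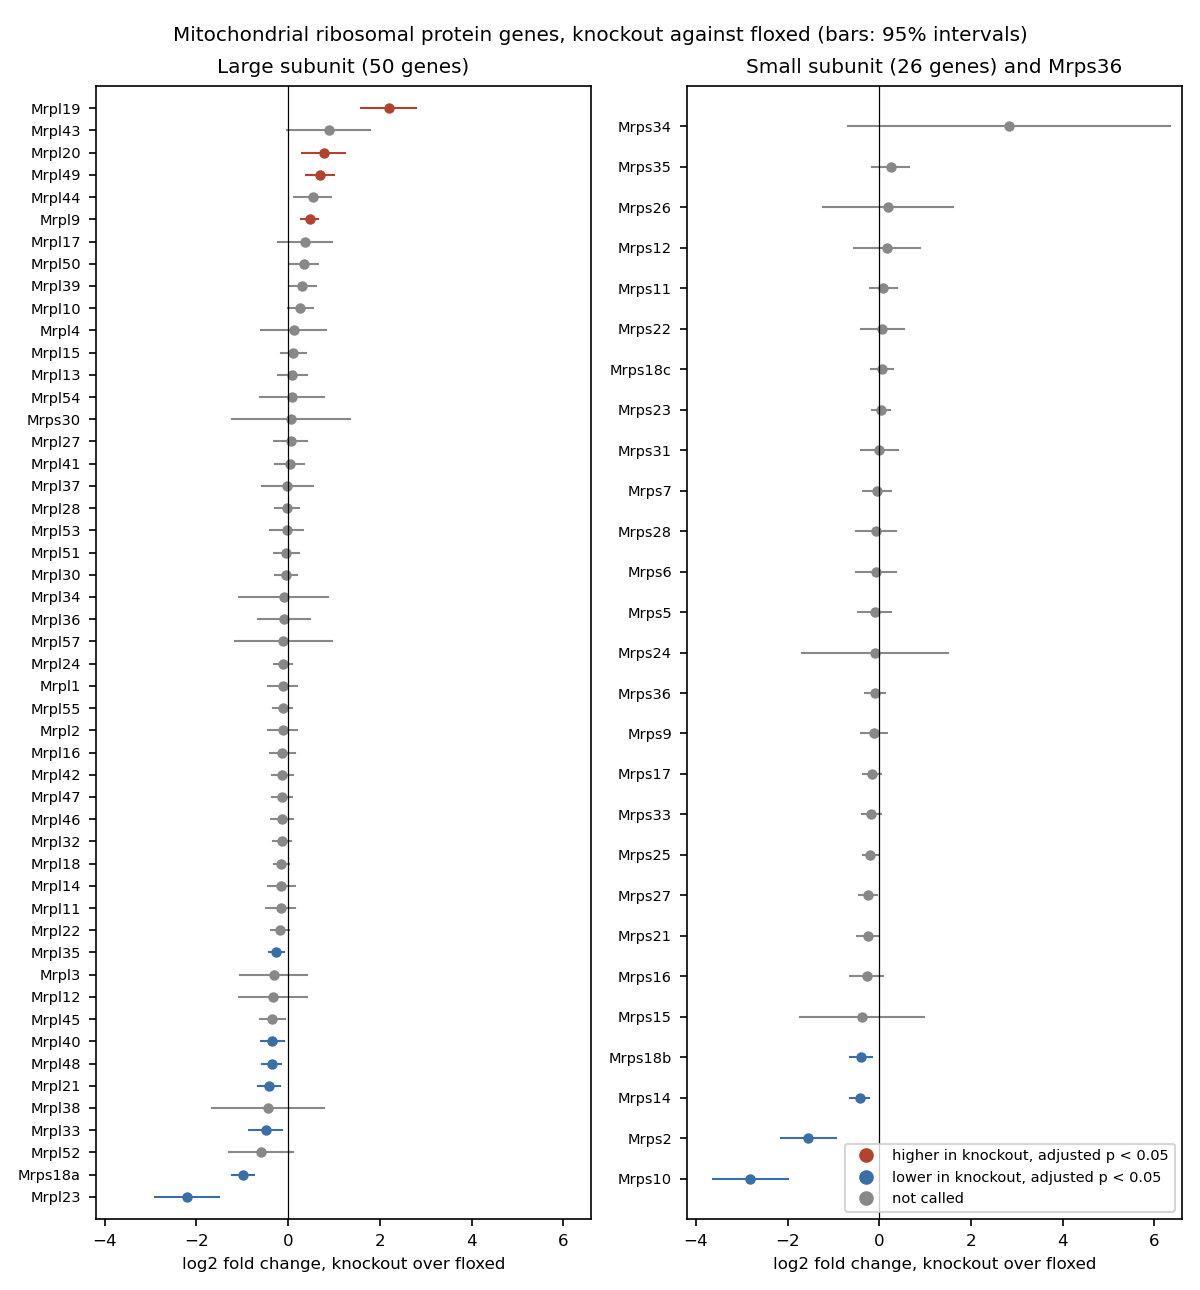
Log2 fold change, knockout over floxed, of the 77 genes (edgeR on 4 knockout and 4 floxed mouse sums) with 95% intervals, large subunit on the left, small subunit and Mrps36 on the right; red marks genes called higher, blue genes called lower, grey genes not called. Most estimates lie near 0, while Mrpl19 at 2.19 and Mrps10 at −2.81 are the extremes among called genes.

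The AU-rich core TATTTAT is a sequence that ZFP36 family proteins bind. In annotated 3′ untranslated regions it occurred in 14 of 76 members (18.4%), against 27.7% of 13777 tested genes, a difference that was not tested. Members also had shorter regions, with a median of 327 bases against 1003, and per kilobase the motif occurred 0.219 times in members and 0.288 times in all. Of the 14 genes with the motif, 1 was higher (Mrpl20) and 4 lower (Mrpl33, Mrpl35, Mrps10 and Mrps14) in knockout oocytes, with a median log2 fold change of −0.13. Among the 3822 tested genes that have the motif, 652 were higher and 455 lower, with a median of 0.04. Of the 62 members without it, 3 were higher and 7 lower, with a median of −0.10, against 1381 higher and 1359 lower among 9955 tested genes without it, with a median of −0.02. The difference between members and other genes was not tested. The sites of the 5 called genes are shown because they are the letters that a ZFP36 family protein could meet in the mRNAs that differed. They are written in the direction of the mRNA from the mm10 transcript annotation, with the 7 bases of the motif in capitals and 8 bases on either side. Mrps10 has a pair of matches that overlap. A match is a description of the letters and not a binding site.
Mrpl20 site, chr4:155808715-155808737 (plus strand): ctgatttgTATTTATttacattt
Mrpl33 site, chr5:31622579-31622601 (plus strand): agaccacaTATTTATctccctgg
Mrpl35 site, chr6:71815211-71815233 (minus strand): gttctttgTATTTATgacagtta
Mrps10 site, chr17:47378573-47378595 (plus strand): tttgttctTATTTATttatccat
Mrps10 site, chr17:47378577-47378599 (plus strand): ttcttattTATTTATccatccat
Mrps14 site, chr1:160200971-160200993 (plus strand): taattctaTATTTATgtatctta

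The start sites of these genes were searched for the letters bound by known regulators of mitochondrial genes. Promoters from RefSeq on GRCm38.p6, from 250 bases before to 50 after the start, were found for 68 of the 77 genes and searched on both strands. The core of the nuclear respiratory factor NRF1, GCGCATGCG, occurred in 7 genes (10.3%), against 3.75% of tested genes and 1.95% of all genes in the promoter table. The core bound by ETS factors such as GABP, CCGGAAGT, occurred in 12 (17.6%), against 8.23% of tested and 4.31% of all genes. The core of YY1, AAGATGGCG, occurred in 8 (11.8%), against 3.15% of tested and 1.64% of all genes. Any of the 3 occurred in 26 genes (38.2%), against 14.2% of tested and 7.48% of all genes; these shares were not tested. Of the 15 called genes, Mrpl19 had no promoter in the set and was not searched. Among the other called genes 6 had a match, beside 26 of the 68 genes with a promoter (38.2%). A link between matches and calls was not tested. The 6 were 1 higher (Mrpl9) and 5 lower (Mrpl33, Mrpl35, Mrpl48 in 1 of its 4 promoters, Mrps18a and Mrps18b). Promoters of 4 of them are shown, 1 higher (Mrpl9, with NRF1 matches that overlap on both strands) and 3 lower (Mrps18a with YY1, Mrps18b with NRF1 on the other strand, Mrpl33 with ETS), with the matches in capitals.
Mrpl9 promoter, chr3:94443086-94443385 (plus strand): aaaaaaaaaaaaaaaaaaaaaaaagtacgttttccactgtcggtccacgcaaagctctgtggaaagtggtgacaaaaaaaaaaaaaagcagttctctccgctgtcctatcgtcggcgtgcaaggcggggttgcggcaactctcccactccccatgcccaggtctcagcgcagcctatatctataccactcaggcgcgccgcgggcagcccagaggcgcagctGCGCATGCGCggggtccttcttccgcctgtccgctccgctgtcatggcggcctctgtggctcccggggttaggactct
Mrps18a promoter, chr17:46110754-46111053 (plus strand): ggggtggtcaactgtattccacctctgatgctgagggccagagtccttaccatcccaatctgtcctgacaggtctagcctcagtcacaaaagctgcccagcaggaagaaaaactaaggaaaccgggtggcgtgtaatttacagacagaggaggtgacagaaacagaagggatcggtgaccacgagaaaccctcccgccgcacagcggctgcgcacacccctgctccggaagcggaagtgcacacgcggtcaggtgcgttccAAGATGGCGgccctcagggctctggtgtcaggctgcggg
Mrps18b promoter, chr17:35916391-35916690 (minus strand): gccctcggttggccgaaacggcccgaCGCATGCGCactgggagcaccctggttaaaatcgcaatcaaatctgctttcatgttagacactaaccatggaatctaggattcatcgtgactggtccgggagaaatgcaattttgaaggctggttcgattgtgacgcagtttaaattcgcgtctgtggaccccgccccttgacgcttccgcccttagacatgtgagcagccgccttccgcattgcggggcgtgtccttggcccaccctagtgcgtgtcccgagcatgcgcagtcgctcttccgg
Mrpl33 promoter, chr5:31613701-31614000 (plus strand): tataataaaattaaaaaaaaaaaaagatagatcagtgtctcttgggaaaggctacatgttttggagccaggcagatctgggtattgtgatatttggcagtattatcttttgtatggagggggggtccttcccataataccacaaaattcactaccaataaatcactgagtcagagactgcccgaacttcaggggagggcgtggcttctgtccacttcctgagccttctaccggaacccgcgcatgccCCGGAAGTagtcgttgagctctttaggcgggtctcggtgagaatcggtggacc

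Among the genes higher in knockout oocytes, Mrpl19 differed most. Its protein sits in the large subunit and has a bacterial namesake at the face that meets the small subunit. Mrpl19 (chromosome 6, 81957851 to 81965958, mm10) had 15.0, 24.5, 26.2 and 28.0 CPM in knockout mice 1 to 4, against 6.06, 5.39, 4.90 and 3.75 CPM in floxed mice 1 to 4. Every knockout mouse lay above every floxed mouse. It was 4.57-fold higher (log2 fold change 2.19, SE 0.27, adjusted p = 0.000735). Single oocytes had 11.7 to 44.2 CPM with a median of 24.0 in knockout mice, and 1.05 to 15.1 CPM with a median of 4.30 in floxed mice. All 24 knockout oocytes exceeded the floxed median. The library kit does not mark strand, and 1962 bases of Mrpl19 exons (39.2%) lie opposite exons of Gcfc2, which had 22.6 ± 7.58 CPM in knockout and 24.9 ± 2.00 CPM in floxed mice (log2 fold change −0.19, adjusted p = 0.593).

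Mrpl9, a large-subunit protein with a bacterial counterpart, was the most abundant called member per length in knockout oocytes, and its promoter is printed above. It had 256.0, 249.2, 245.5 and 257.7 CPM in knockout mice 1 to 4, against 202.5, 182.7, 158.4 and 166.0 CPM in floxed mice 1 to 4. The knockout values were close together and all above the floxed ones. The difference was 1.39-fold (log2 fold change 0.47, SE 0.08, adjusted p = 0.0035), and all 24 knockout oocytes lay above the floxed median. Of its exons, 157 bases (9.74%) lie opposite Oaz3, which had 15.8 ± 5.37 CPM in knockout and 9.03 ± 0.825 CPM in floxed mice (adjusted p = 0.0766).

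Mrpl49, found in mitochondria only, had 43.4, 49.5, 55.5 and 48.8 CPM in knockout mice 1 to 4, against 32.4, 29.7, 27.6 and 29.6 CPM in floxed mice 1 to 4. The groups did not overlap. It was 1.61-fold higher (log2 fold change 0.69, SE 0.14, adjusted p = 0.00594). Of its exons, 91 bases (5.16%) lie opposite Syvn1, and Syvn1 was itself 1.85-fold higher in knockout oocytes, at 67.5 ± 19.0 CPM against 35.6 ± 10.7 CPM in floxed mice (adjusted p = 0.0277). Mrpl20, whose bacterial counterpart joins the large subunit early in its assembly, had 24.0, 32.1, 36.1 and 30.3 CPM in knockout mice 1 to 4, against 22.7, 18.003, 13.9 and 15.7 CPM in floxed mice 1 to 4. Knockout mouse 1 and floxed mouse 1 were close to each other and the other mice lay further apart. Mrpl20 was 1.71-fold higher (log2 fold change 0.77, SE 0.21, adjusted p = 0.0227). The call was lost without knockout mouse 2 (adjusted p = 0.0894), 3 (0.102) or 4 (0.0697), without floxed mouse 2 (0.0553), 3 (0.0611) or 4 (0.0693), and with oocytes thinned to equal totals (0.0513).

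**Figure D3:**
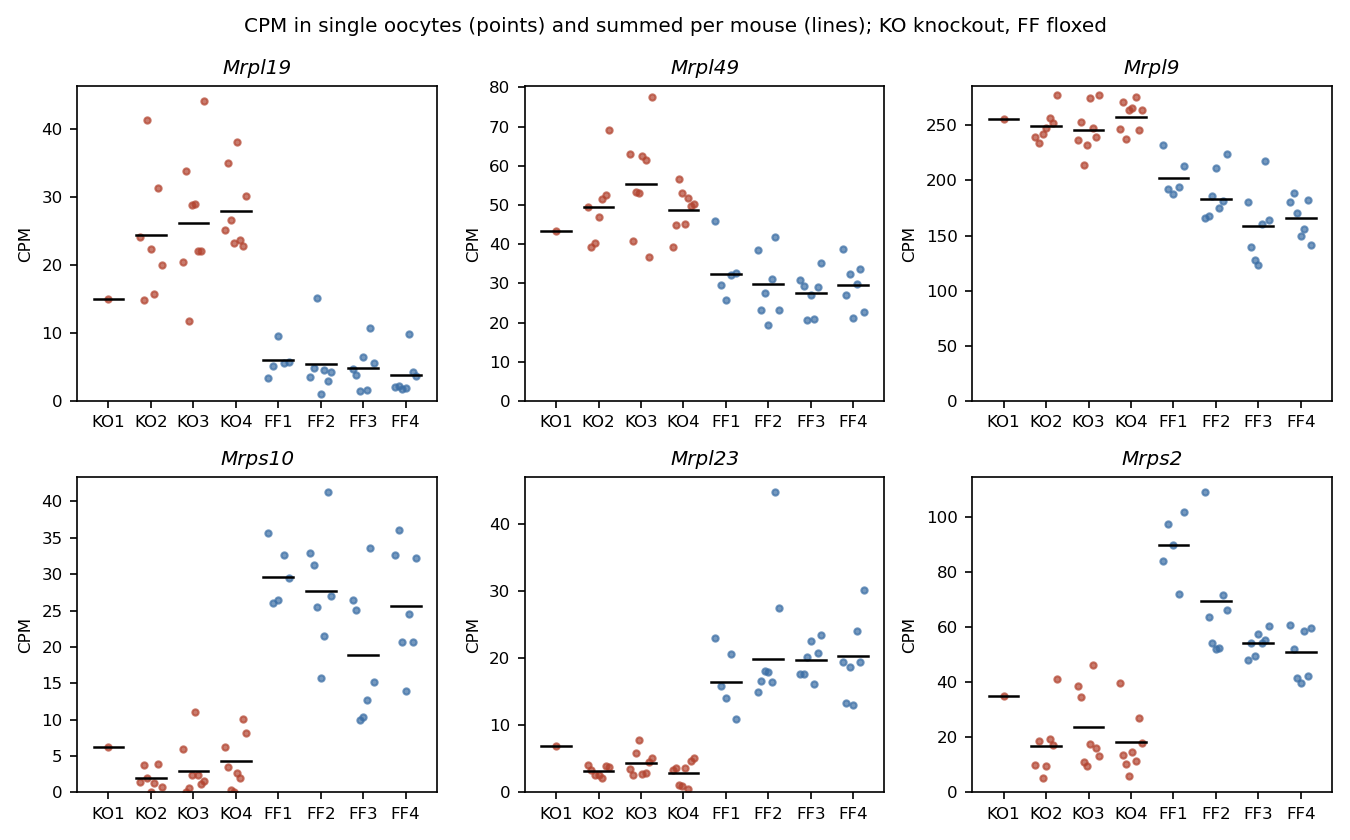
CPM of Mrpl19, Mrpl49, Mrpl9, Mrps10, Mrpl23 and Mrps2 in single oocytes (points) and mouse sums (lines); KO1 to KO4 and FF1 to FF4 are knockout and floxed mice 1 to 4, and every axis starts at 0. The knockout oocytes lie above nearly all floxed oocytes in the upper row and below nearly all of them in the lower row, and do not overlap with them for Mrpl23.

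Mrpl23 was the large-subunit gene with the strongest fall. Its protein lies at the mouth of the tunnel through which the new chain leaves the ribosome. Mrpl23 (chromosome 7, 142532686 to 142540747, mm10) had 6.93, 3.21, 4.45 and 2.94 CPM in knockout mice 1 to 4, against 16.4, 19.8, 19.8 and 20.2 CPM in floxed mice 1 to 4. No knockout oocyte, at 0.452 to 7.86 CPM, reached the lowest floxed oocyte, at 10.999 CPM. It was 4.62-fold lower (log2 fold change −2.21, SE 0.31, adjusted p = 0.0014). A processed pseudogene, Mrpl23-ps1, matches 540 bases (78.0%) of its transcript at 100% identity. Reads that fit both places may have been assigned to either, so the value of Mrpl23 is uncertain to that extent.

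The 3 paralogues Mrps18a, Mrps18b and Mrps18c differed in what happened to them. Mrps18a, which in mammals sits in the large subunit despite its name, had 57.9, 50.3, 55.9 and 58.0 CPM in knockout mice 1 to 4, against 115.7, 109.0, 94.4 and 107.2 CPM in floxed mice 1 to 4. It had the smallest p of all members and was 1.97-fold lower (log2 fold change −0.98, SE 0.11, adjusted p = 0.000421). Single oocytes did not overlap, at 29.9 to 77.2 CPM in knockout and 81.8 to 179.3 CPM in floxed mice. Mrps18b, a small-subunit protein, had 90.3, 109.98, 119.9 and 121.0 CPM in knockout mice 1 to 4, against 142.8, 140.1, 135.1 and 151.05 CPM in floxed mice 1 to 4. The groups did not overlap, and it was 1.32-fold lower (log2 fold change −0.40, SE 0.11, adjusted p = 0.0209), a call lost without floxed mouse 4 (0.0671). Of its exons, 638 bases (59.1%) lie opposite the antisense gene Gm16279, and a processed pseudogene, Gm13552, matches 417 bases at 99.8%, so the value of Mrps18b is uncertain. Mrps18c, which occupies the place of the bacterial protein in the small subunit, had 55.4, 64.0, 64.4 and 62.7 CPM in knockout mice 1 to 4, against 58.8, 58.9, 55.0 and 58.7 CPM in floxed mice 1 to 4. These groups overlapped, and the log2 fold change was 0.05 with a 95% interval from −0.19 to 0.30 (adjusted p = 0.754). Of the exons of Mrps18c, 174 bases (27.3%) are shared with Gm43511 on the same strand, so its value is uncertain too. The differences between the paralogues were not tested.

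In the small subunit, Mrps10 showed the largest difference of all called members. Its bacterial counterpart lies in the head of the small subunit. Mrps10 (chromosome 17, 47368887 to 47381417, mm10) had 6.23, 1.96, 2.99 and 4.33 CPM in knockout mice 1 to 4, against 29.6, 27.8, 18.9 and 25.6 CPM in floxed mice 1 to 4. It was 7.03-fold lower (log2 fold change −2.81, SE 0.36, adjusted p = 0.00101). Knockout oocytes had 0 to 11.1 CPM, with 3 of 24 at 0, and floxed oocytes 9.96 to 41.2 CPM with none at 0. Its 3′ untranslated region holds the overlapping TATTTAT pair printed above. A processed pseudogene, AC154457.3, matches 573 bases of its transcript at 97.9%.

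Mrps2, also with a bacterial counterpart in the small subunit, had 34.9, 17.0, 23.6 and 18.3 CPM in knockout mice 1 to 4, against 89.7, 69.6, 54.1 and 51.0 CPM in floxed mice 1 to 4. The highest knockout mouse, mouse 1, stayed below the lowest floxed mouse. It was 2.92-fold lower (log2 fold change −1.55, SE 0.27, adjusted p = 0.00332). Mrps14, which lies in the head of the small subunit, had 76.4, 79.5, 74.6 and 74.2 CPM in knockout mice 1 to 4, against 100.8, 104.6, 96.3 and 98.2 CPM in floxed mice 1 to 4. Both groups were tight and apart, and it was 1.35-fold lower (log2 fold change −0.43, SE 0.09, adjusted p = 0.00751). The calls of Mrps10, Mrps2, Mrps14, Mrps18a, Mrpl19, Mrpl23, Mrpl49 and Mrpl9 held under all 16 alternatives tried.

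The other lower genes belong to the large subunit and differed by 1.195-fold to 1.41-fold. Mrpl48, found in mitochondria only, averaged 131 ± 6.34 CPM in knockout and 163 ± 12.3 CPM in floxed mice (SD, n = 4 each; adjusted p = 0.0173). Mrpl21, with a bacterial counterpart, averaged 61.8 ± 4.40 CPM in knockout and 80.0 ± 2.74 CPM in floxed mice (adjusted p = 0.018). Its call was lost without floxed mouse 4 (0.0573). A processed pseudogene, D9Wsu149, matches 565 bases (49.6%) of Mrpl21 at 97.2%, so its value is uncertain. Opposite 117 bases (10.3%) of Mrpl21 lies Ighmbp2, which was 1.69-fold higher in knockout oocytes (adjusted p = 0.0383). For Mrpl48, a pseudogene, Mrpl48-ps, matches 636 bases at 98.1%, and 403 exon bases (8.58%) lie opposite Rab6a, which was not called (adjusted p = 0.877). Mrpl35, with a bacterial counterpart, averaged 165 ± 6.74 CPM in knockout and 193 ± 6.05 CPM in floxed mice (adjusted p = 0.0277). For Mrpl48, Mrpl21 and Mrpl35 the mouse groups did not overlap. The call of Mrpl48 was lost without floxed mouse 2 (0.0513) or 4 (0.0555), and that of Mrpl35 without floxed mouse 2 (0.0623) or 4 (0.0896).

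Mrpl40 and Mrpl33 were called although their mouse groups overlapped. Mrpl40, found in mitochondria only, had 116.1, 95.6, 94.6 and 100.7 CPM in knockout mice 1 to 4, against 141.9, 133.1, 108.8 and 120.4 CPM in floxed mice 1 to 4 (1.27-fold lower, adjusted p = 0.0461). Mrpl33, with a bacterial counterpart, had 28.9, 31.2, 38.9 and 34.9 CPM in knockout mice 1 to 4, against 38.8, 44.4, 48.0 and 52.1 CPM in floxed mice 1 to 4 (1.41-fold lower, adjusted p = 0.0479). For Mrpl40, knockout mouse 1 lay above floxed mouse 3, and for Mrpl33, knockout mouse 3 lay barely above floxed mouse 1. Of the exons of Mrpl33, 177 bases (37.0%) are shared with Gm43809 on the same strand. Leaving out mice ended both calls. For Mrpl40 the adjusted p was 0.0932 without knockout mouse 2, 0.0967 without 3 and 0.0752 without 4, and 0.0616 without floxed mouse 1, 0.112 without 2 and 0.0892 without 4, and it was 0.0883 among genes with at least 5 CPM in 4 mice. For Mrpl33 it was 0.0861 without knockout mouse 2 and 0.0604 without 4, and 0.0919 without floxed mouse 2, 0.102 without 3 and 0.141 without 4, and it was 0.0521 with no filter on low counts.

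The 62 genes that were not called were bounded rather than shown to be equal. For 50 of them the 95% interval of the fold change lay within 2-fold, and for 39 within 1.5-fold. Mrpl44, which has a ribonuclease-like fold, came nearest to a call at 86.6, 76.2, 71.7 and 83.6 CPM in knockout mice 1 to 4, against 70.9, 59.7, 41.6 and 41.9 CPM in floxed mice 1 to 4. The groups did not overlap (log2 fold change 0.54, SE 0.18, adjusted p = 0.0527), and without floxed mouse 1 it was called (0.0233). Mrpl44 was also called without mouse 1 of both genotypes (0.0190). Opposite 126 of its exon bases (8.85%) lies Wdfy1, itself 1.94-fold higher in knockout oocytes (adjusted p = 0.00749). Mrpl43, found in mitochondria only, had 41.1, 37.5, 32.8 and 37.7 CPM in knockout mice 1 to 4, against 37.7, 21.4, 8.24 and 12.0 CPM in floxed mice 1 to 4. Floxed mouse 1 lay among the knockout mice (log2 fold change 0.88, SE 0.40, adjusted p = 0.133), and without it Mrpl43 was called at a log2 fold change of 1.32 (0.0158). Without mouse 1 of both genotypes Mrpl43 was called at 1.28 (0.0118). Opposite 385 exon bases of Mrpl43 (27.5%) lies Twnk, at 60.9 ± 17.1 CPM in knockout and 44.1 ± 4.78 CPM in floxed mice (adjusted p = 0.157).

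Mrpl52, found in mitochondria only, was at −0.59 on the log2 scale (SE 0.31, adjusted p = 0.182), and Mrpl38, also found in mitochondria only, at −0.44 (SE 0.54, adjusted p = 0.591). Mrpl12, a large-subunit protein that also binds the mitochondrial RNA polymerase, averaged 74.6 ± 26.3 CPM in knockout and 91.4 ± 42.0 CPM in floxed mice (adjusted p = 0.493). Mrps30, which sits in the large subunit despite its name, averaged 27.4 ± 15.8 CPM in knockout and 25.7 ± 23.7 CPM in floxed mice (adjusted p = 0.947). The spread of all 4 between mice was wide. Mrps36 had a log2 fold change of −0.10 with a 95% interval from −0.32 to 0.11 (adjusted p = 0.47).

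The level of Mrps34, a small-subunit protein found in mitochondria only, was near the limit of detection. It had 13.9, 2.34, 0.787 and 1.58 CPM in knockout mice 1 to 4, against 2.40, 0.163, 0 and 0 CPM in floxed mice 1 to 4. It was at 0 in 6 of 24 knockout and in 19 of 26 floxed oocytes, and mouse 1 was the highest in both genotypes. The estimated difference was 2.83 on the log2 scale (SE 1.56, adjusted p = 0.208), and without floxed mouse 1 the adjusted p was 0.0162. Mrps34 was also called without mouse 1 of both genotypes, at a log2 fold change of 4.89 (0.0103), where floxed mice 2 to 4 had 0.163, 0 and 0 CPM. Of its exons, 576 bases (62.8%) lie opposite Mapk8ip3, which had 57.9 ± 9.11 CPM in knockout and 24.9 ± 8.46 CPM in floxed mice (2.27-fold higher, adjusted p = 0.00537). Reads of Mrps34 and of Mapk8ip3 cannot be told apart there. In all, 28 of the 77 genes share exon bases with another gene, 12 of them 20% or more, and 17 have a near-identical copy elsewhere (at least 95% over at least 300 bases).

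Variation from oocyte to oocyte within a mouse was described by its SD, averaged over the mice of a genotype. Knockout mouse 1 gave a single oocyte and was left out. Over the members, the median SD on the log2(CPM + 1) scale was 0.200 in knockout and 0.228 in floxed mice, against 0.448 and 0.413 over all tested genes. With every oocyte thinned to 1746007 counts the medians were 0.220 in knockout and 0.249 in floxed mice, against 0.486 and 0.446 over all genes. In 29 of the 77 genes the SD was higher in knockout mice. The same count was not made over all tested genes. Mrps10 and Mrps2 varied more in knockout oocytes, where they were scarce: the SD of Mrps10 was 1.07 in knockout and 0.44 in floxed mice, and that of Mrps2 was 0.83 in knockout and 0.24 in floxed mice. For Mrpl19, scarce in floxed oocytes, it was 0.44 in knockout and 0.72 in floxed mice. Counting error is larger at low counts, and its part in these spreads was not tested.

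Mouse 1 stood apart in both genotypes for part of the members. It was the highest of the 4 mice in both genotypes for 30 of the 77 genes (39.0%), against 20.7% of all tested genes, and the lowest in both for 9 (11.7%), against 22.4%. In 6 members it exceeded the mean of the other mice by over 2-fold in both genotypes (7.79%, against 3.88% of all genes): Mrpl38, Mrps15, Mrps24, Mrps26, Mrps30 and Mrps34, of which Mrps15 and Mrps24 were named after their values were seen. For Mrps24, a small-subunit protein, the values were 86.6, 19.96, 20.3 and 17.4 CPM in knockout mice 1 to 4, against 94.6, 22.3, 17.3 and 16.0 CPM in floxed mice 1 to 4. The median GC content of the 6 transcripts was 54.5%, against 50.1% for the other members. Mrps30 at 44.2% and Mrps26 at 49.2% lay below 50.1%, and the rest of the 6 above it. Over all tested genes the same contrast was larger, at 56.9% for those over 2-fold in both genotypes against 49.4% for the rest. Knockout mouse 1 is a single oocyte, while floxed mouse 1 gave 5.

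**Figure D4:**
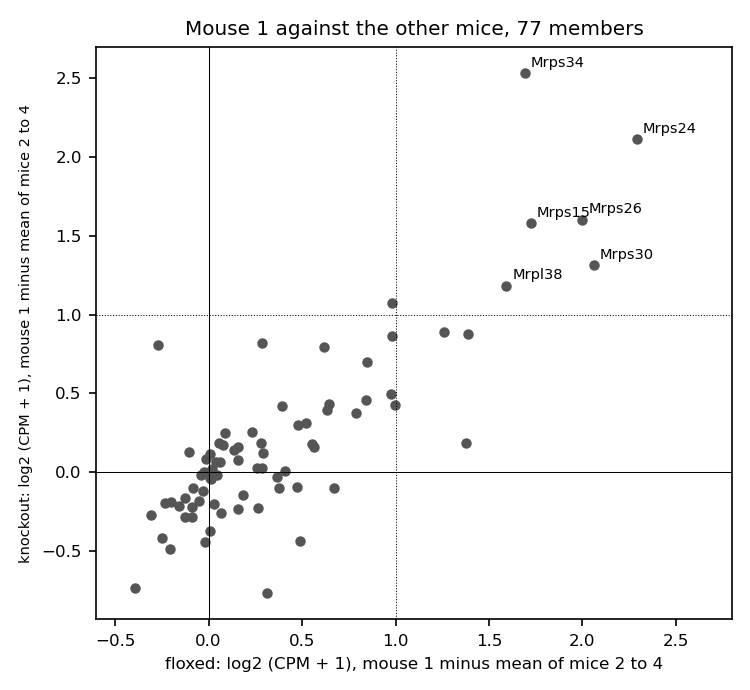
For each of the 77 genes, log2(CPM + 1) in mouse 1 minus the mean of mice 2 to 4, knockout mice on the vertical axis and floxed mice on the horizontal axis; dotted lines mark 2-fold. The 6 named genes lie beyond 2-fold in both genotypes, and most others lie near 0.

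The remaining proteins of the mitochondrial ribosome, listed under other names, gave 1 call among 7 tested (14.3%). Each share in this and the next paragraph stands beside 27.6% of all tested genes called, and none of the 5 lists exceeded it. Dap3, a GTP-binding protein of the small subunit, had 207.1, 213.5, 220.03 and 209.1 CPM in knockout mice 1 to 4, against 262.5, 277.3, 248.3 and 264.1 CPM in floxed mice 1 to 4. It was lower without overlap (log2 fold change −0.35, SE 0.07, adjusted p = 0.00563). Among 26 genes of ribosome assembly and rRNA modification, 4 were higher and 2 lower (23.1%). Mterf3, needed for large-subunit assembly, was 2.08-fold higher (72.8 ± 5.20 CPM in knockout, 34.0 ± 5.88 CPM in floxed mice; adjusted p = 0.0014). Eral1, which binds the rRNA of the small subunit, was 1.91-fold higher (72.0 ± 5.37 CPM in knockout, 36.7 ± 5.50 CPM in floxed mice; adjusted p = 0.00202). Tfb1m, the methyltransferase of that rRNA, was lower at 69.5 ± 6.33 CPM in knockout and 106 ± 8.90 CPM in floxed mice (adjusted p = 0.00329). Dhx30 and Rnmtl1 were the other higher genes and Mterf4 the other lower gene, named after their values were seen.

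Of 15 mitochondrial translation factors, 1 was higher and 2 lower (20%). Mtif3, an initiation factor, was lower at 113 ± 9.37 CPM in knockout and 145 ± 9.90 CPM in floxed mice (adjusted p = 0.013). Mtif2, the other initiation factor, was 1.40-fold higher (adjusted p = 0.033), and this call was lost without any mouse but knockout mouse 1 (0.0599 to 0.123). Mtrf1l, a release factor, was lower at 2.59 ± 0.625 CPM in knockout and 5.70 ± 2.23 CPM in floxed mice (adjusted p = 0.0435), and 6 of the 8 left-out mice ended its call (0.0822 to 0.104). Of 16 mitochondrial aminoacyl-tRNA synthetases, 2 were higher and 2 lower (25%). Vars2 was 1.95-fold higher (adjusted p = 0.00448), while Pars2 (adjusted p = 0.0454) and Rars2 (adjusted p = 0.0488, named after its values were seen) were lower. Pars2 lost its call without each of 6 mice (0.0622 to 0.112). Of 12 genes of mitochondrial DNA transcription and replication, 2 were higher (16.7%). Tfam, which packs mitochondrial DNA and starts its transcription, was 2.06-fold higher, at 80.7 ± 13.2 CPM in knockout and 38.1 ± 2.47 CPM in floxed mice (adjusted p = 0.00119). Tefm, the elongation factor of the mitochondrial RNA polymerase, was 1.84-fold higher (adjusted p = 0.006).

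Of 8 nuclear regulators of mitochondrial genes, 4 were higher and 1 lower (62.5%, against 27.6% of all genes). This share was not tested, and the list was chosen with earlier results of these data known. Yy1 had 45.2, 35.2, 31.6 and 23.4 CPM in knockout mice 1 to 4, against 8.61, 5.23, 5.89 and 4.65 CPM in floxed mice 1 to 4. The groups did not overlap, and Yy1 was 5.42-fold higher (log2 fold change 2.44, SE 0.28, adjusted p = 0.0006). Gabpa, the DNA-binding subunit of GABP, had 11.8, 17.998, 18.7 and 10.8 CPM in knockout mice 1 to 4, against 2.45, 3.06, 4.04 and 2.73 CPM in floxed mice 1 to 4. It too was without overlap, and was 4.69-fold higher (log2 fold change 2.23, SE 0.30, adjusted p = 0.0012). Pprc1, a coactivator of these factors, was 1.99-fold higher (adjusted p = 0.00412). Gabpb2, a partner of GABPA, was higher (adjusted p = 0.00999) and the coactivator Ppargc1a lower (adjusted p = 0.0188), both named after their values were seen. Nrf1 was not called, at 215 ± 50.6 CPM in knockout and 181 ± 2.83 CPM in floxed mice (adjusted p = 0.337).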

How the data were processed

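Single-oocyte RNA-seq counts of knockout and floxed mice were analysed. Per the labels' protocols, Trizol RNA was turned into cDNA with a SMARTer Ultra Low Input kit. That kit has no molecular identifiers and keeps no strand. The authors deposited unnormalized read counts per gene as whole numbers; STAR and mm10 are named in the submitters' processing notes. Which tool counted the reads, and what it did with multi-mapped ones, is not stated in the labels.

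Each column was assigned to its oocyte by the header that the labels name, or by title where that had another form. No pair of the 150 same-mouse oocyte pairs agreed within sampling noise (chi-square per degree of freedom 5.39 to 28.2), so none was taken for a repeated library. Counts were summed per mouse (4 knockout, 4 floxed) and tested over all genes with edgeR 4.0.16 in R 4.3.3: TMM, filterByExpr with a minimum count of 10, robust quasi-likelihood test, Benjamini-Hochberg adjusted p under 0.05. Every adjusted p in the text is from this test unless another is named. The biological coefficient of variation was 35.4%. CPM is computed from the deposited counts, and values ± are SD over mice. Intervals do not cover PCR copying.

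Alternatives were RLE size factors in edgeR, DESeq2 1.42.0, other filters, left-out mice, mouse 1 of both genotypes left out, mouse number as a block, limma 3.58.1 voom on oocytes, and thinning to 1746007 counts. The members and lists were chosen with earlier results of these data known. Named are all called members, the 6 highest and 4 lowest per length in floxed mice, the 4 largest uncalled differences at a mean of 10 CPM or more, the Mrps18 paralogues, Mrpl12, Mrps30 and Mrps36, up to 3 called genes per list, and Zfp36l2. Of these, 1 gene is not reported here. Others were named after their values were seen. Coordinates and exons come from GENCODE M21 for mm10 (16350 of 16614 rows matched by accession, 186 by symbol, 78 not matched). Promoters come from RefSeq (GRCm38.p6).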

Additional observations from a re-analysis of the deposited data

Results flagged for a closer look

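Values were set aside for a closer look where 1 mouse lay far from the other 3 of its genotype in mouse sums. Among 92 groups of 4 mice examined, 8 had such a mouse, where chance gives about 1 in 20 groups. Mouse 1 was the distant mouse in 7 of them, 3 in knockout and 4 in floxed mice. The cause was not tested.

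Mrps26 was at 33.0 CPM in knockout mouse 1, with the next knockout mouse at 11.7 CPM, and at 32.2 CPM in floxed mouse 1, with the next floxed mouse at 9.47 CPM. Mrps34 was at 13.85 CPM in knockout mouse 1, with the next at 2.34 CPM, and at 2.40 CPM in floxed mouse 1, with the next at 0.163 CPM. Mrps30 reached 61.1 CPM in floxed mouse 1, with the next at 16.1 CPM. Mrpl23, which was called lower in knockout oocytes, was lowest in floxed mouse 1 at 16.4 CPM, with the next at 19.8 CPM, so that mouse lay nearest to the knockout mice. Eral1 was lowest in knockout mouse 1 at 63.9 CPM, with the next at 74.0 CPM. Mrps18c was lowest in floxed mouse 3 at 55.0 CPM, with the next at 58.7 CPM.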

How the results depend on the processing

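With floxed mouse 1 left out, the floxed mean of the summed level moved below the knockout mean; in the other alternatives tried the knockout mean was lower. Leaving out 1 mouse at a time, 3 to 7 members were higher (4 with all mice) and 5 to 13 lower (11 with all mice), beside 1359 to 2538 higher and 1219 to 2822 lower of all genes. Without mouse 1 of both genotypes 8 members were higher and 15 lower, beside 3182 higher and 3549 lower of all genes. The limma voom fit on oocytes gave 12 higher and 16 lower members, with 3335 higher and 3424 lower of all genes (36.4% of members and 45.0% of all genes called). DESeq2 gave 6 higher and 16 lower members, with 2700 higher and 2724 lower of all genes (28.6% of members and 36.1% of all genes). The median log2 fold change of members stayed below 0, from −0.05 to −0.18. Of 717 alternative values of named genes, 49 lost a call, 14 gained one and none reversed a called direction; the cause was not tested.

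The labels do not say that a mouse number marks a pair. Deviations of same-numbered mice correlated at 0.316, −0.004, 0.248 and 0.180. Knockout mice 1, 3 and 4 correlated best with the floxed mouse of their own number, mouse 4 at 0.180 against 0.167 with floxed mouse 3. Knockout mouse 2 did not correlate best with its own number. Whether the numbers pair the samples was not tested. With the mouse number as a replicate block, 10 members were higher and 14 lower, 31.2% of members against 38.7% of all genes, and all 15 calls were kept. The calls added were those of Mrpl17, Mrpl43, Mrpl44, Mrpl45, Mrpl50, Mrps25, Mrps27, Mrps34 and Mrps35. At these depths Mrps34 was not detectable in 6 of 24 knockout and 19 of 26 floxed oocytes.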
